A study of Mus musculus with 6 samples.

Results

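Toll-like receptors and the NF-κB signaling genes behind them were examined in brown adipose tissue (BAT), as 40 genes chosen by name out of 35976 gene rows in the deposited count table. The 40 genes hold 10 Toll-like receptors, 2 coreceptors, 2 NOD receptors, 3 adaptors, 4 IRAK kinases, 3 TRAF proteins, 3 IKK kinases, 5 NF-κB subunits, 5 IκB proteins and 3 feedback inhibitors, and all 40 passed the filter on low counts. RNA-seq was performed on the BAT of 3 sST2-KO mice and 3 WT littermates, all 10 weeks old, male and of C57BL/6J background. In every mouse the nerves of BAT had been cut, after which the mice were kept at 30 °C for 7 days and then at 10 °C for 8 h, so the groups share the denervation and the cold and carry different genotypes. In sST2-KO mice the stretch of Il1rl1 lying between exon 8 and exon 9 was deleted with CRISPR/Cas9 in all cells of the body, in order to remove soluble ST2 and keep the membrane receptor ST2L. Innervated or warm mice were not analysed here.

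Toll-like receptors recognize parts of microbes and of damaged cells, at the cell surface or in endosomes. They signal through the adaptors Myd88 and Ticam1 to IRAK and TRAF proteins, which activate the IKK complex. IKK marks IκB proteins for destruction, and the freed NF-κB dimers enter the nucleus and switch on cytokine genes together with the genes of their own inhibitors. In adipose tissue the pathway is best known from macrophages and from obesity, but adipocytes and endothelial cells carry parts of it too.

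The libraries held between 8159442 and 12874809 counts. Values are given as CPM, counts scaled to a common library size with the TMM factors of edgeR. Genotypes were compared with the quasi-likelihood test of edgeR, and each adjusted p from all 6 libraries is the Benjamini-Hochberg value over all 14542 genes tested. Fits with a library left out were filtered anew and adjusted over their own genes, 15085 without WT replicate 3. The smallest p that 3 mice a group allow in an exact two-sided permutation test is 0.1. The summed CPM of 8 brown adipocyte markers, led by Ucp1, was 8039 to 15164 in WT libraries and 335 to 1759 in sST2-KO libraries. Counts of Il1rl1 add up soluble ST2 and ST2L and cannot check the genotype, and its level was 0.740 to 1.79 CPM in WT and 3.83 to 14.0 CPM in sST2-KO libraries. WT replicate 2 held 3192 CPM of the liver transcript Alb, against 1.31 to 23.7 CPM elsewhere.

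Genes of this pathway mostly had higher levels in BAT of the sST2-KO group. By the thresholds of 2-fold and an adjusted p of 0.05, 11 of the 40 genes rose, against 9.04% of all genes tested, and 0 of the 40 fell, against 7.10%. The 11 genes were Tnfaip3, Ikbke, Nfkbie, Tlr1, Tlr2, Tlr13, Tlr6, Traf1, Zc3h12a, Nfkbiz and Relb, in the order of their fold change. A further 6 genes (Myd88, Traf6, Nfkb1, Nfkb2, Nfkbia and Bcl3) rose by less than 2-fold, so that 17 passed the adjusted p at any fold, against 19.6% of all genes in either direction and 10.5% in the higher direction. All 3 sST2-KO libraries lay above all 3 WT libraries in 25 of the 40 genes, against 21.8% of all genes, and below them in 3, against 19.7% (either way in 41.5% of all genes). The median log2 fold change was 0.95 over the 40 genes and 0.034 over all genes tested. These calls rested strongly on WT replicate 3, without which Tnfaip3 alone passed (1 of 40). Without it 22 of the 40 genes had an unadjusted p under 0.05, against 27 with all libraries. The calls rested less strongly on WT replicate 2, without which 7 passed. The size of the rise moved less than the calls. On the log2 scale its median over the 40 genes was 0.89 without WT replicate 3 and 0.96 without WT replicate 2. It was lowest, at 0.76, without sST2-KO replicate 3. Without WT replicate 3, calls also fell from 7 to 1 in brown adipocyte markers and from 6 to 5 in T cell markers. The share of all genes called in the fits without 1 library is not given here, so the drop cannot be set against it.

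**Figure D1:**
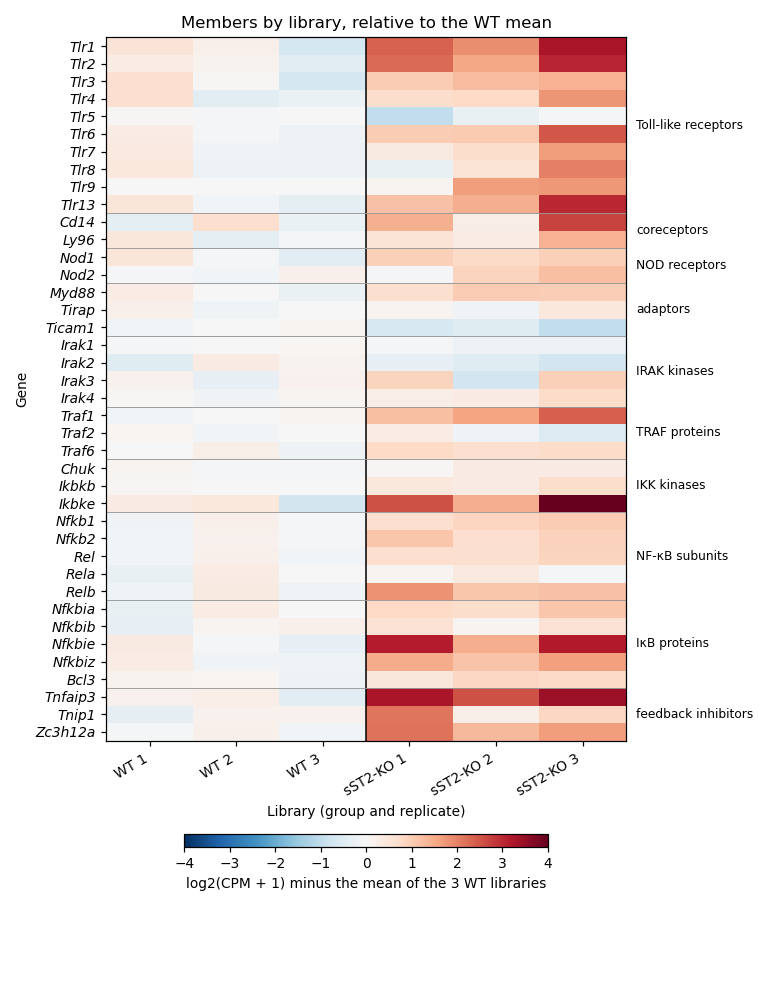
Level of each of the 40 genes (rows, grouped by role) in each library (columns), as log2(CPM + 1) minus the mean of the 3 WT libraries, from blue (lower) to red (higher). Of the 10 Toll-like receptors 9 are reddest in sST2-KO replicate 3, the exception being Tlr5, whereas Tnfaip3 and Nfkbie are dark red in sST2-KO replicates 1 and 3.

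**Figure D2:**
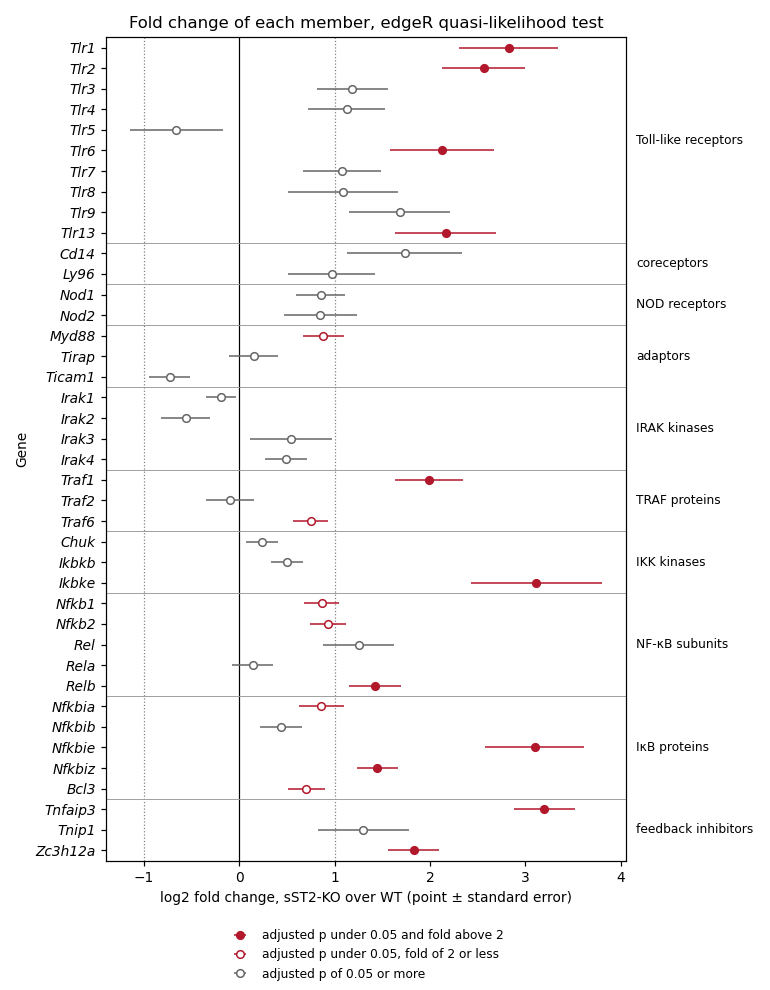
Log2 fold change of sST2-KO over WT (point) with its standard error (bar) for each of the 40 genes, grouped by role, with dotted lines at a 2-fold change. Filled points mark the 11 genes past both thresholds, all to the right of 0, and the 5 genes with a point left of 0 are Tlr5, Ticam1, Irak1, Irak2 and Traf2, none of them with an adjusted p under 0.05.

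Because NF-κB acts by binding κB elements, the promoters of the 40 genes were searched on both strands for the κB consensus, from 250 bases before to 50 bases after the start of each gene's canonical transcript (GENCODE, GRCm39). A match was found in 6 of the 40 promoters and in 653 of 12449 promoters of all tested protein-coding genes (5.25%). Of the 11 genes past both thresholds 4 had a match, Tlr2, Relb, Nfkbie and Tnfaip3, and of the other 29 genes 2 had one, Nfkbia and Tlr3. The stretches upstream of the start are shown for these 6 genes because they hold the letters NF-κB is known to bind, with the match in capitals and the rest in lower case, in the direction of the gene.
Tnfaip3, chr10:18891259-18891298, minus strand: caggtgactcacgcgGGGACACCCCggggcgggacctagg
Nfkbie, chr17:45866505-45866544, plus strand: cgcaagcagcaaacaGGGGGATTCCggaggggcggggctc
Relb, chr7:19363436-19363475, minus strand: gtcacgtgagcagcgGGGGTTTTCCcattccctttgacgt
Tlr2, chr3:83749075-83749103, minus strand: ctctttaggacacctGGGGAATTCCCaca
Nfkbia, chr12:55539437-55539476, minus strand: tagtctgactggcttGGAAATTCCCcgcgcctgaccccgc
Tlr3, chr8:45863604-45863643, minus strand: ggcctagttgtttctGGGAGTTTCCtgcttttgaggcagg
The capitals in Tlr2 are 2 overlapping matches, and the match in Nfkbia reads as the consensus on the opposite strand. Relb and Tnfaip3 each had a second match after the start, 36 and 16 bases downstream. A match is a run of letters, not a measured binding site, and a promoter without a match in this window may hold other elements.

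Among the Toll-like receptors, those that pair on the cell surface to sense bacterial lipopeptides rose. Tlr2, the shared partner of both heterodimers, was at 6.81, 5.94 and 3.70 CPM in WT replicates 1 to 3 and at 29.5, 17.4 and 51.0 CPM in sST2-KO replicates 1 to 3 (log2 fold change 2.56, standard error 0.43, adjusted p = 0.0150). Its partner Tlr1 was at 4.85, 3.68 and 1.48 CPM in WT and at 19.9, 13.9 and 38.0 CPM in sST2-KO libraries (log2 fold change 2.82, standard error 0.52, adjusted p = 0.0167). The other partner, Tlr6, was at 2.33, 1.60 and 1.36 CPM in WT and at 4.53, 4.63 and 14.2 CPM in sST2-KO libraries (log2 fold change 2.13, standard error 0.54, adjusted p = 0.0350). In each of the 3 genes the groups did not overlap and sST2-KO replicate 3 was highest. Tlr1 and Tlr6 are neighbors on chromosome 5 of GRCm39, from 65082022 to 65090941 and from 65108704 to 65203497, and are closely related in sequence. Without WT replicate 3 the adjusted p was 0.0653 for Tlr2, 0.0646 for Tlr1 and 0.133 for Tlr6. Tlr1 also lost its call without WT replicate 2 (0.0529). The call of Tlr6 was the least stable, with 0.0610 without WT replicate 1, 0.102 without WT replicate 2 and 0.0688 without sST2-KO replicate 3, where its log2 fold change was 1.35.

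Of the receptors that sense nucleic acids in endosomes, Tlr13, the mouse receptor for bacterial ribosomal RNA, rose. It was at 15.8, 9.99 and 8.26 CPM in WT replicates 1 to 3 and at 26.2, 31.7 and 95.1 CPM in sST2-KO replicates 1 to 3 (log2 fold change 2.16, standard error 0.53, adjusted p = 0.0309). Leaving out sST2-KO replicate 3 gave 1.34 (adjusted p = 0.0423), while the call was lost without WT replicate 1, 2 or 3, with an adjusted p of 0.0506, 0.0958 and 0.122. The 4 other endosomal receptors did not pass. Tlr9, which senses unmethylated DNA, had a log2 fold change of 1.68 (adjusted p = 0.0613), being at 2.17 to 2.24 CPM in WT libraries, 2.44 CPM in sST2-KO replicate 1 and 9.26 and 9.78 CPM in replicates 2 and 3. Tlr3, for double-stranded RNA, stood at 5.05 to 14.6 CPM against 19.1 to 24.8 CPM without overlap (log2 fold change 1.19, adjusted p = 0.0605). Tlr7 and Tlr8, the X-linked receptors for single-stranded RNA, overlapped between the groups (log2 fold changes 1.08 and 1.09, adjusted p = 0.102 and 0.215). Tlr8 was at 57.9 CPM in sST2-KO replicate 3 but at 10.9 and 20.4 CPM in replicates 1 and 2, against 11.4 to 18.7 CPM in WT libraries.

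None of the 3 genes of the receptor complex for lipopolysaccharide passed the test. Tlr4, the signaling receptor, was at 30.1, 13.7 and 15.3 CPM in WT replicates 1 to 3 and at 30.9, 33.0 and 65.4 CPM in sST2-KO replicates 1 to 3 (log2 fold change 1.13, standard error 0.40, adjusted p = 0.0881). Cd14, which hands lipopolysaccharide to the complex, was at 31.6, 67.9 and 34.9 CPM in WT and at 115.6, 50.9 and 281 CPM in sST2-KO libraries (log2 fold change 1.74, standard error 0.61, adjusted p = 0.0815). Ly96, the protein that holds the lipid on Tlr4, was at 4.29, 1.98 and 2.71 CPM in WT and at 4.67, 3.80 and 9.18 CPM in sST2-KO libraries (log2 fold change 0.97, standard error 0.46, adjusted p = 0.169). The groups overlapped in Cd14 and Ly96, and the margin in Tlr4 was 30.1 against 30.9 CPM. In all 3 genes sST2-KO replicate 3 was highest, and without it the log2 fold changes were 0.69, 0.88 and 0.49. With DESeq2 the adjusted p of Tlr4 was 0.0397 and that of Cd14 0.0138, past the threshold. The flagellin receptor Tlr5 was the only Toll-like receptor with a negative value, at 1.98 to 2.24 CPM in WT and 0.558 to 1.97 CPM in sST2-KO libraries (log2 fold change -0.66, adjusted p = 0.366). The intracellular receptors for bacterial cell wall fragments, Nod1 and Nod2, had log2 fold changes of 0.86 and 0.85 (adjusted p = 0.0546 and 0.155), and only those of Nod1 did not overlap, at 31.4 to 61.7 CPM against 74.3 to 85.6 CPM.

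Marker sums of macrophages, monocytes, neutrophils and T cells were higher along with these receptors, whereas that of dendritic cells was lower on average. In whole tissue, more cells of a type and more RNA per cell cannot be told apart. The summed CPM of 12 macrophage markers was 928 to 1267 in WT libraries and 1724, 1717 and 6899 in sST2-KO replicates 1 to 3, with 4 of 12 past both thresholds and none at 0 in any library. That of 6 monocyte markers was 80.9 to 183 in WT and 712 to 1805 in sST2-KO libraries (4 of 6 past both thresholds), and that of 9 neutrophil markers 32.8 to 159.5 and 160.3 to 762 (3 of 9). Relative to the WT mean, the sum of the 10 Toll-like receptors was 1.99, 2.16 and 4.97 in sST2-KO replicates 1 to 3. The same ratios were 1.55, 1.54 and 6.20 for the macrophage markers, 5.47, 7.20 and 13.9 for the monocyte markers, 7.09, 2.04 and 9.67 for the neutrophil markers and 8.38, 8.32 and 10.2 for 7 T cell markers. All 5 sums were highest in sST2-KO replicate 3. Without that library the median log2 fold change was 1.21 over the Toll-like receptors, 0.47 over the macrophage markers, 1.99 over the monocyte markers, 2.19 over the neutrophil markers and 3.00 over the T cell markers. The part of these cells in the higher receptor levels was not tested. Of the other lists, 6 of 7 T cell markers, 1 of 5 dendritic cell markers, 1 of 6 endothelial markers and 1 of 10 skeletal muscle markers rose past both thresholds, as did 0 of 2 B cell and 0 of 6 fibroblast markers. The summed CPM of 7 dendritic cell markers was 45.2 to 65.6 in WT libraries and 38.3, 46.6 and 28.2 in sST2-KO replicates 1 to 3. That of 5 B cell markers was 0.933 to 2.96 in WT and 2.73 to 5.78 in sST2-KO libraries. The 10 skeletal muscle markers summed to 6.29 to 1223 CPM in WT and 3535 to 15047 CPM in sST2-KO libraries, highest in sST2-KO replicate 3. Past the same thresholds, 7 of 8 brown adipocyte markers, 2 of 8 adipocyte markers, all 5 erythrocyte markers, 2 of 4 liver markers and 1 endothelial marker fell. Of all genes tested, 9.04% rose and 7.10% fell past both thresholds. Most of the marker counts rested on single libraries. Without WT replicate 3 they were 5 for the T cell markers, 1 for the brown adipocyte markers and 0 for every other list. Without WT replicate 2 the macrophage, dendritic cell, endothelial, adipocyte, skeletal muscle and liver counts were 0, the neutrophil count was 1, the brown adipocyte count 2 and the erythrocyte count 3. Without WT replicate 1 the macrophage, neutrophil and adipocyte counts were 1, the dendritic cell count was 0, and all 10 skeletal muscle markers passed. Leaving out an sST2-KO library gave 1 neutrophil marker without replicate 3, 2 without replicate 1 and 5 without replicate 2, and 0 adipocyte markers without replicate 1 or 3. The liver count was 0 with any 1 of the 3 sST2-KO libraries left out, the skeletal muscle and dendritic cell counts were 0 without replicate 2 or 3, and at most 1 endothelial marker passed in these fits. Differences between the mice in the tissue dissected, such as the amount of muscle, and effects of the genotype cannot be told apart here.

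**Figure D3:**
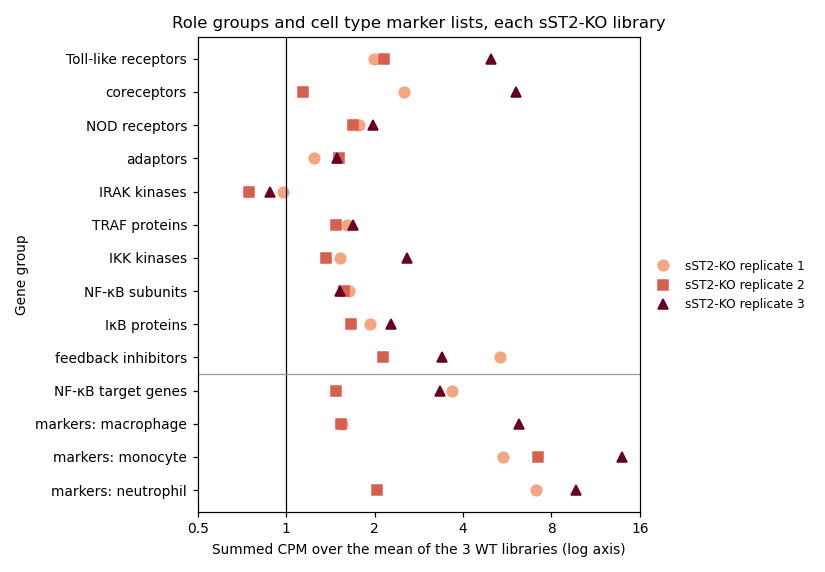
Summed CPM of each role group, of 28 NF-κB target genes and of 3 cell type marker lists in each sST2-KO library, relative to the mean of the 3 WT libraries (log axis, line at 1). The Toll-like receptors, coreceptors and macrophage markers are highest in sST2-KO replicate 3, the feedback inhibitors are highest in replicate 1 at 5.33, and the IRAK kinases lie below 1 in every sST2-KO library.

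Between the receptors and NF-κB, 0 of 3 adaptors and 0 of 4 IRAK kinases passed both thresholds, against 16.1% of all genes tested. Of the TRAF proteins 1 of 3 passed them, and of the IKK kinases 1 of 3. Groups of 3 or 4 genes are too small for these counts to be told apart from the share of all genes. Myd88, the adaptor of nearly all Toll-like receptors, rose by less than 2-fold, from 61.9, 48.8 and 40.8 CPM in WT replicates 1 to 3 to 78.3, 101.1 and 100.1 CPM in sST2-KO replicates 1 to 3 (log2 fold change 0.88, standard error 0.22, adjusted p = 0.0307). Over the fits without 1 library, the adjusted p of Myd88 ranged from 0.0324 to 0.126. Its exons overlap those of Acaa1a on the opposite strand, and whether reads were counted by strand is not given in the sources used here. Ticam1, the adaptor of Tlr3 and of endosomal Tlr4, had the lowest value of the 40 genes, at 21.4 to 25.0 CPM in WT and 11.1 to 16.1 CPM in sST2-KO libraries (log2 fold change -0.73, standard error 0.22, adjusted p = 0.0513). Its groups did not overlap, and DESeq2 gave an adjusted p of 0.0173. Tirap, the bridge to Myd88, was at 8.48 to 11.3 CPM against 8.78 to 13.2 CPM.

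None of the 4 IRAK kinases, which carry the signal from Myd88, passed the test. Irak1 was at 73.7 to 82.7 CPM in WT and 65.9 to 73.5 CPM in sST2-KO libraries (log2 fold change -0.19, adjusted p = 0.424), a value that turned to 0.078 with scaling by total counts. Irak2 was at 105 to 188 CPM in WT and 86.9 to 117 CPM in sST2-KO libraries (log2 fold change -0.56, adjusted p = 0.157). Irak3, the member that restrains the others, was at 64.5, 19.9 and 67.4 CPM in sST2-KO replicates 1 to 3 against 27.0 to 39.0 CPM in WT libraries, so that replicate 2 lay below all WT libraries. Irak4 was at 13.2 to 15.8 CPM against 17.8 to 25.4 CPM without overlap (log2 fold change 0.49, adjusted p = 0.154).

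Of the TRAF genes, Traf6 and Traf1 rose. Traf6, the ubiquitin ligase that Myd88 signaling needs, rose from 21.1, 25.3 and 18.6 CPM to 38.5, 34.5 and 36.3 CPM (log2 fold change 0.75, standard error 0.18, adjusted p = 0.0300). Traf1, which lacks the ligase domain and is known as an NF-κB target, rose from 4.76, 5.28 and 5.79 CPM in WT replicates 1 to 3 to 13.3, 17.7 and 31.8 CPM in sST2-KO replicates 1 to 3 (log2 fold change 1.99, standard error 0.36, adjusted p = 0.0162). Neither gene overlapped between the groups, and Traf1 lost its call without WT replicate 2 (0.0516) or 3 (0.0679). With any 1 library left out, the adjusted p of Traf6 was above 0.05 (0.0544 to 0.126). Traf2 was at 20.3 to 23.0 CPM against 14.5 to 26.9 CPM (log2 fold change -0.097, adjusted p = 0.812) and turned to 0.16 with total counts.

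Ikbke, a kinase related to the IKK complex that can be induced by inflammatory signals, rose most among the kinases. It was at 8.96, 9.71 and 3.82 CPM in WT replicates 1 to 3 and at 45.6, 21.0 and 130.05 CPM in sST2-KO replicates 1 to 3 (log2 fold change 3.12, standard error 0.69, adjusted p = 0.0239). The libraries of sST2-KO mice differed from each other by far more than those of WT mice, and leaving out sST2-KO replicate 3 gave 2.13 (adjusted p = 0.0358). Without WT replicate 1, 2 or 3 the adjusted p was 0.0575, 0.0669 and 0.0966. The catalytic subunits of the IKK complex itself did not pass. Ikbkb, which phosphorylates IκB in the canonical pathway, was at 44.1 to 46.0 CPM against 56.0 to 74.1 CPM (log2 fold change 0.50, adjusted p = 0.0775), and Chuk, the kinase of the alternative pathway, was at 49.5 to 56.9 CPM against 53.6 to 65.9 CPM (log2 fold change 0.23, adjusted p = 0.351).

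Of the 5 NF-κB subunits, the precursors and Relb rose, whereas Rela did not pass. Relb, the partner of the alternative pathway, was at 15.2, 22.5 and 15.2 CPM in WT replicates 1 to 3 and at 62.9, 38.7 and 40.2 CPM in sST2-KO replicates 1 to 3 (log2 fold change 1.42, standard error 0.27, adjusted p = 0.0172). Nfkb2, the precursor Relb pairs with, rose from 28.4, 34.8 and 29.1 CPM to 67.2, 49.0 and 59.2 CPM (log2 fold change 0.93, standard error 0.19, adjusted p = 0.0195). Nfkb1, the precursor of the canonical dimer, rose from 45.8, 58.3 and 48.9 CPM to 82.2, 93.5 and 103 CPM (log2 fold change 0.87, standard error 0.18, adjusted p = 0.0211). The groups did not overlap in any of these 3 genes. Rela, the activating subunit of the canonical dimer, was at 73.1, 109 and 89.8 CPM in WT and at 97.4, 117 and 87.0 CPM in sST2-KO libraries, with overlap between the groups (log2 fold change 0.14, standard error 0.22, adjusted p = 0.668). Rel, the subunit of lymphocytes and activated myeloid cells, was the least counted of the 40 genes, with 6 to 12 counts in WT and 16 to 28 in sST2-KO libraries (log2 fold change 1.25, adjusted p = 0.0517). Relb lost its call without WT replicate 3 (0.0791). Over the fits without 1 library, the adjusted p ranged from 0.0292 to 0.0905 for Nfkb2 and from 0.0312 to 0.0984 for Nfkb1.

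IκB proteins hold NF-κB back in the cytoplasm, and the genes of IκBα and IκBε are themselves known targets of NF-κB. Nfkbie, which encodes IκBε on chromosome 17 of GRCm39 from 45866585 to 45874661, was at 4.10, 2.92 and 2.22 CPM in WT replicates 1 to 3 and at 34.7, 10.1 and 35.0 CPM in sST2-KO replicates 1 to 3 (log2 fold change 3.10, standard error 0.52, adjusted p = 0.0150). Nfkbia, which encodes IκBα, rose from 122, 185 and 149 CPM to 259, 244 and 325 CPM (log2 fold change 0.86, standard error 0.23, adjusted p = 0.0416). Its mean CPM was the highest of the 40 genes in sST2-KO libraries (276) and level with that of Irak2 in WT libraries (152.1 and 151.9). Nfkbib was at 24.3 to 35.5 CPM against 33.1 to 46.7 CPM (log2 fold change 0.44, adjusted p = 0.197). The 3 classical IκB genes thus spanned log2 fold changes from 0.44 to 3.10. Of the nuclear IκB proteins, which act on NF-κB at the promoter, Nfkbiz rose from 43.1, 31.9 and 31.1 CPM to 99.5, 78.9 and 111 CPM (log2 fold change 1.45, standard error 0.22, adjusted p = 0.0136). Bcl3 rose from 25.7, 24.3 and 20.0 CPM to 31.8, 42.4 and 40.1 CPM (log2 fold change 0.71, standard error 0.19, adjusted p = 0.0421). The groups overlapped in Nfkbib and in none of the other 4 genes. Without WT replicate 3 the adjusted p was 0.0669 for Nfkbie and 0.0622 for Nfkbiz. Over the fits without 1 library, it ranged from 0.0608 to 0.147 for Nfkbia, which passed in none of them. For Bcl3 it ranged from 0.0404 to 0.161.

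The largest fold change of the 40 genes was in a feedback inhibitor. Tnfaip3 encodes the ubiquitin-editing enzyme that ends signaling from Toll-like and TNF receptors, and lies on chromosome 10 of GRCm39 from 18874201 to 18891405. It was at 11.1, 12.1 and 6.90 CPM in WT replicates 1 to 3 and at 102, 61.3 and 113 CPM in sST2-KO replicates 1 to 3 (log2 fold change 3.20, standard error 0.32, adjusted p = 0.00900). The lowest sST2-KO library was thus several times the highest WT library. Tnfaip3 was the only member whose call held with each of the 6 libraries left out in turn, with log2 fold changes from 2.99 to 3.40 and an adjusted p of at most 0.0417. Zc3h12a, an RNase that cuts cytokine transcripts, rose from 13.0, 15.9 and 12.7 CPM to 66.1, 35.5 and 46.0 CPM (log2 fold change 1.83, standard error 0.26, adjusted p = 0.0135), and its adjusted p was 0.0614 without WT replicate 3. Tnip1, the binding partner of the Tnfaip3 protein, was at 36.8, 53.0 and 53.3 CPM in WT and at 212, 55.5 and 83.5 CPM in sST2-KO libraries. Its value rested on sST2-KO replicate 1 (log2 fold change 1.30, standard error 0.48, adjusted p = 0.0924), without which the log2 fold change was 0.54. The exons of Tnip1 overlap those of Gpx3 on the opposite strand.

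**Figure D4:**
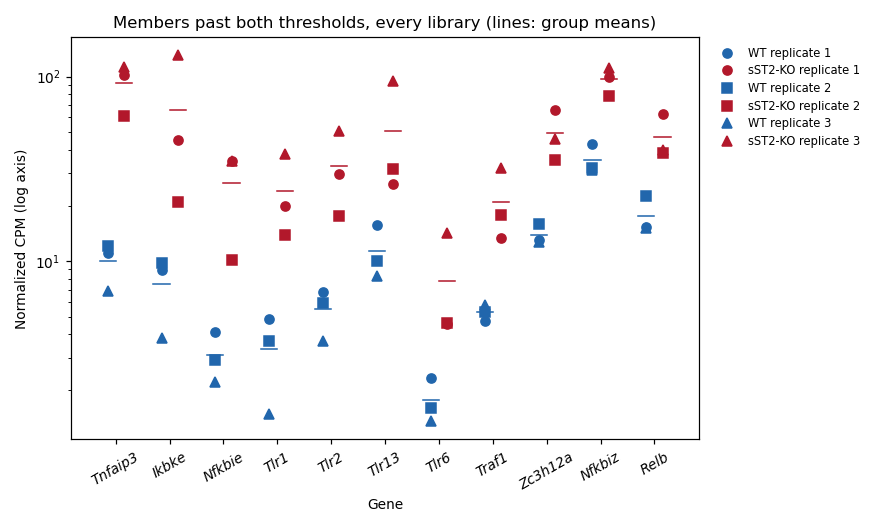
CPM (log axis) of the 11 genes past both thresholds in every library, WT in blue and sST2-KO in red, with a symbol for each replicate number and a line at each group mean, ordered by fold change. The 11 genes were chosen by their difference between these same libraries, and the groups overlap in none of them. The highest library is sST2-KO replicate 3 in all of the 11 genes but Zc3h12a and Relb.

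The order of the sST2-KO libraries differed between the roles. Among the Toll-like receptors, coreceptors and NOD receptors, the highest library was sST2-KO replicate 3 in 13 of 14 genes. Among the 13 genes of the NF-κB subunits, IκB proteins and feedback inhibitors, it was sST2-KO replicate 3 in 6, replicate 1 in 5 and replicate 2 in 2. The sum of the 3 feedback inhibitors was 5.33, 2.13 and 3.39 times the WT mean in sST2-KO replicates 1 to 3, with replicate 3 below replicate 1, whereas the sum of the 2 coreceptors was 2.51, 1.14 and 6.08 times the WT mean. In sST2-KO replicates 1 and 2, Tnfaip3 was at 10.2 and 6.12 times the WT mean, Nfkbie at 11.3 and 3.27 times, Zc3h12a at 4.77 and 2.56 times and Tlr4 at 1.57 and 1.68 times. In the same libraries the macrophage, monocyte, neutrophil and T cell marker sums ranged from 1.54 (macrophages) to 8.38 (T cells) times the WT mean. The B cell marker sum was at 2.86 and 1.35 times, and the dendritic cell marker sum at 0.67 and 0.81 times. The part of these cells in the levels of the pathway genes was not tested. The order of the libraries was not tested.

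Levels of different genes were compared as CPM per kb of the canonical transcript. On this scale the 40 genes spanned from Rel to Nfkbia, with mean levels of 0.112 and 96.4 in WT and 0.271 and 175 in sST2-KO mice. After Nfkbia, the highest WT means were those of Irak2 (41.3), Rela (33.4), Cd14 (27.3), Nfkbib (22.7) and Irak1 (20.2), all above every Toll-like receptor. The highest Toll-like receptor was Tlr4 in WT mice (4.79) and Tlr13 in sST2-KO mice (11.3), where Tlr2 (10.8) and Tlr4 (10.5) followed closely and within the spread between libraries. Tnfaip3 moved from 1.45, near Nfkbie (1.25) and Traf1 (1.54), to 13.4 in sST2-KO mice, near Relb (13.9). Cd14 moved from 27.3 to 91.0, the second highest mean in sST2-KO mice, with libraries that overlapped between the groups.

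**Figure D5:**
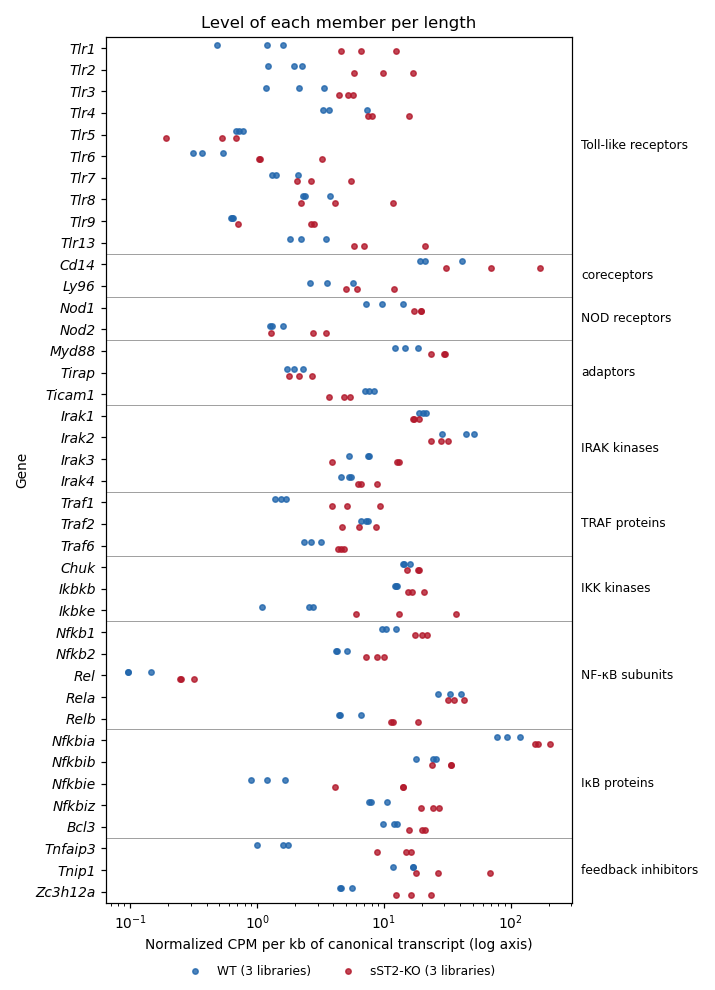
CPM per kb of canonical transcript (log axis) of each of the 40 genes in the 3 WT libraries (blue) and the 3 sST2-KO libraries (red), grouped by role. By group mean, Nfkbia (96.4 and 175) lies farthest right and Rel (0.112 and 0.271) farthest left, and in WT libraries every Toll-like receptor lies left of Irak1, Rela and Nfkbia.

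Further genes of the pathway were taken from 3 lists written from general knowledge, with earlier results of these samples known. Of 52 tested, 11 rose past both thresholds and 0 fell, against 9.04% and 7.10% of all genes, and their median log2 fold change was 0.56. Among 12 receptors and accessory proteins, 2 rose, Cd180 (log2 fold change 2.90, adjusted p = 0.0177), a Toll-like receptor homolog of B cells and myeloid cells, and Pik3ap1 (2.26, adjusted p = 0.0168), an adaptor that links the receptors to phosphoinositide kinase. The lowest value of this list was that of the fatty acid carrier Cd36 (-0.86, adjusted p = 0.0844). Among 29 genes of the signal relay, 6 rose, led by Malt1 (1.97, adjusted p = 0.0122), Nfkbid (1.94, adjusted p = 0.0169), Card9 (1.75, adjusted p = 0.0361) and Birc3 (1.66, adjusted p = 0.0126). Malt1 and Card9 belong to the CARD route from antigen and lectin receptors to IKK, Nfkbid is a nuclear IκB protein and Birc3 a ubiquitin ligase. The relay subunits Ikbkg, Map3k7, Tab1 and Tab3 had log2 fold changes of -0.11, 0.0096, -0.33 and -0.011, with adjusted p values of at least 0.476. These 4 genes were named after their values were seen and do not stand for the list. Over its 29 genes the median log2 fold change was 0.55, and 20 had an unadjusted p under 0.05. The lowest value of the list was that of the ligase Peli2 (-1.08, adjusted p = 0.0704). Among 11 negative regulators, 3 rose, Tnip3 (3.68, adjusted p = 0.0237), Zfp36 (1.59, adjusted p = 0.0165) and N4bp1 (1.04, adjusted p = 0.0368), and the lowest value was that of Otud7b (-0.33, adjusted p = 0.297). Tnip3 is a relative of Tnip1 and Zfp36 a decay factor for cytokine transcripts. Without WT replicate 3, 0 of the 52 genes passed both thresholds, and without WT replicate 2, 6 did.

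Known NF-κB target genes outside the pathway, such as cytokines and chemokines, also rose. Of 28 listed, 24 passed the filter on low counts, and of these 20 rose past both thresholds and 0 fell, against 9.04% and 7.10% of all genes, with a median log2 fold change of 2.93. The highest were the neutrophil chemokine Cxcl2 (6.11, adjusted p = 0.0231), the growth factor Csf3 (5.70, adjusted p = 0.0150), the cytokine Il1b (5.00, adjusted p = 0.0213) and the prostaglandin synthase Ptgs2 (4.93, adjusted p = 0.0375). In these 4 genes sST2-KO replicate 3 was highest, for Cxcl2 at 405 CPM against 43.8 and 16.6 CPM in replicates 1 and 2 and 0.740 to 3.58 CPM in WT libraries. The mitochondrial superoxide dismutase Sod2 had the lowest value (-0.42, adjusted p = 0.444). The promoter window held a κB match in 13 of the 28 listed genes (46.4%). Some of the 24 had few counts in WT libraries and passed the filter through their sST2-KO libraries. With at least 10 counts required in every library, 18 target genes were tested and 14 of them rose past both thresholds. Without WT replicate 3, 1 of the 24 passed both thresholds. The list was written with earlier results of these samples known, and many of its genes are also expressed by the myeloid cells whose markers were higher.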

How the data were processed

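RNA-seq counts of BAT from 3 WT and 3 sST2-KO mice were used, with groups and replicate numbers taken from the sample labels. Per the labels and the study's methods, the authors selected poly-A RNA, checked the reads with FastQC 0.12.1, aligned them with HISAT2 2.2.1 to mm39 and counted them with htseq-count, whose version and strand setting are not given in the sources used here. The deposited values are raw counts per gene symbol, of which 27 rows carry a symbol turned into a date, and all per-sample columns were used. Counts were tested in R 4.3.3 with edgeR 4.0.16 (filterByExpr, TMM, quasi-likelihood test without a covariate, Benjamini-Hochberg adjustment over 14542 genes). The study's tool, DESeq2 1.42.0, was an alternative. Calls required both a 2-fold change and an adjusted p of less than 0.05. Standard errors of log2 fold changes were derived from F, as |log2 fold change| over its root. CPM values use TMM library sizes, the depth was 8159442 to 12874809 counts per library, and the common biological coefficient of variation was 0.325, which limits the precision.

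Libraries of a group differed by a chi-square of at least 37.1 per degree of freedom, so none was counted as a copy. Transcript lengths, positions and promoters are from GENCODE vM39 on GRCm39, the assembly of mm39, in which all 40 genes were found and 19 have exons that overlap a gene on the opposite strand. The 40 genes and all gene and marker lists were chosen with earlier results of these data known. Named genes were fixed by a rule: all 40, with values per library for those at an adjusted p under 0.05 and for Tlr4, Cd14, Ly96, Myd88, Rela and Nfkb1, and from each further list up to 4 called genes with the largest change and the lowest value. Ikbkg, Map3k7, Tab1, Tab3, Ucp1, Alb, Tnfrsf1a and Tnfrsf1b were named after their values were seen. Scripts were tested on simulated data. Python 3.11.15 with matplotlib 3.10.9 drew the figures. Alternatives were DESeq2, RLE factors, total counts, other filters, robust estimation, a 1.5-fold minimum, a replicate block and each library left out. Litters of single mice were not used, and p-values weigh the difference between the groups against the spread of the mice within them.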

Additional observations from a re-analysis of the deposited data

How the results depend on the processing

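The 11 called genes stayed called with RLE factors, total counts, DESeq2, no filter, at least 10 counts in every library and robust estimation. Total counts called 19 genes and moved the median of the 40 genes to 1.21, while that of all genes moved from 0.034 to 0.29, and a 1.5-fold minimum called 17. DESeq2 called 16, adding Tlr3, Tlr4, Tlr9, Cd14 and Tnip1, and called 1 of the further pathway genes lower. The shares of all genes called under these alternatives are not given here. Leaving out single libraries, the called genes ranged from 1 to 14, those at an adjusted p under 0.05 from 1 to 17, the further pathway genes called higher from 0 to 13 and the target genes called higher from 1 to 20, with the lowest values always without WT replicate 3. Without WT replicate 2, 7 genes passed the adjusted p, and without sST2-KO replicate 3, 11 did. In the fit with a replicate block, 0 of the 40 genes were called or passed the adjusted p, and 0 pathway and 0 target genes were called, although edgeR gave 24 of the 40 an unadjusted p under 0.05. The filter on 10 counts left 38 of the 40 genes and 14 called target genes. The numbers were not shown to pair the mice (correlations of deviations from the group means of -0.058, 0.21 and -0.31), and 2 residual degrees of freedom remain in that fit. Values near 0 turned sign in Irak1 (0.078) and Traf2 (0.16) with total counts and, over the fits without 1 library, in Tirap (-0.022 to 0.26) and Traf2 (-0.35 to 0.088), in both cases without sST2-KO replicate 3. Total counts leave out the TMM scaling, and the cause of the other changes was not tested. At these depths genes with few counts, such as Rel, are imprecise.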

Other observations

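Receptors of the TNF family also feed NF-κB. Of 5 tested, 2 rose past both thresholds, against 9.04% of all genes tested. The list is too short to be read against that share. The log2 fold change was 1.82 for Tnfrsf11a, the receptor for the osteoclast factor RANKL (adjusted p = 0.0154), and 1.37 for Cd40, a receptor of antigen-presenting cells (adjusted p = 0.0404). Tnfrsf1b, the TNF receptor of leukocytes, was at 43.1 to 56.0 CPM in WT libraries and at 71.6, 74.3 and 207 CPM in sST2-KO replicates 1 to 3 (log2 fold change 1.23, adjusted p = 0.0782). Tnfrsf1a, the TNF receptor of most cells, was at 174 to 296 CPM against 193 to 242 CPM (log2 fold change 0.012, adjusted p = 0.981). No test compared these receptors with each other. Without WT replicate 3, 0 of the 5 passed both thresholds, and 1 did without WT replicate 1 or 2 or sST2-KO replicate 2 or 3.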
